A study of Mus musculus with 10 samples.

Results

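The genes examined are those of interferon gamma (Ifng), the 2 chains of its receptor (Ifngr1, Ifngr2), tumour necrosis factor (Tnf), the 2 receptors that bind it (Tnfrsf1a, Tnfrsf1b), and 4 further receptors of the TNF family that T cells use for costimulation (Tnfrsf4, Tnfrsf9, Tnfrsf18 and Cd27). They were taken by name, with every probe set that the platform annotation gives them, which made 10 of the 18193 genes named by a single-gene probe set, and 14 of the 45037 probe sets. The choice was made with earlier results of these data known. RNA came from invariant natural killer T (iNKT) cells, T cells whose nearly uniform receptor binds lipids held by CD1d, sorted from the thymi of C57BL/6 mice 6 weeks of age. The groups were Id3KO stage 1 (2 arrays), WT stage 1 (2 arrays), Id3KO stage 2 (3 arrays) and WT stage 2 (3 arrays). Id3KO mice lack Id3, an inhibitor of the E protein transcription factors, and the sources used here do not give the structure of the allele. All sorted cells bound the CD1d tetramer and lacked CD24 and NK1.1. Stage 1 cells also lacked CD44, and stage 2 cells carried it. The gate therefore left out the NK1.1-positive cells of the last thymic stage.

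Interferon gamma binds a receptor of a ligand-binding chain, encoded by Ifngr1, and a signalling chain, encoded by Ifngr2, which act through the kinases Jak1 and Jak2. TNF signals through TNFR1 (Tnfrsf1a), which carries a death domain, and TNFR2 (Tnfrsf1b), which does not and is found mainly on lymphocytes and other immune cells. OX40 (Tnfrsf4), 4-1BB (Tnfrsf9), GITR (Tnfrsf18) and CD27 recruit TRAF adaptors and support the survival and expansion of T cells. iNKT cells are known for releasing interferon gamma and TNF soon after stimulation, and the cells here were not stimulated, as far as the labels say.

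All values are the probe set intensities that the authors deposited, on a linear scale, and fold changes were taken after log2. Median intensity was 54.8 to 55.5 over the 10 arrays, and the number of arrays limits the precision of every value. Id3 was lower in Id3KO than in WT at both stages (log2 -4.32 at stage 1 and -3.83 at stage 2). Transcripts of the CD3 chains were bright on every array, with Cd3d between 2975 and 3652. Among them, Cd247 read 767.9 and 776.8 in Id3KO stage 1 cells, against 1150.9 and 1284.3 in WT stage 1 cells. At stage 2 it read 704.7 to 865.3 in Id3KO and 954.8 to 1116.9 in WT cells. Its genotypes did not overlap at either stage. Neither difference of Cd247 passed (log2 -0.65, limma adjusted p = 0.0578 at stage 1, and -0.42, 0.054 at stage 2). Cd3d went the other way (log2 0.2 at stage 1 and 0.09 at stage 2) and did not pass either. The summed intensity of 5 B cell markers was 243.6 to 258.1 in Id3KO and 249.3 to 284.8 in WT arrays. Those of 8 myeloid and dendritic markers (436.6 to 468.8 in Id3KO, 431.0 to 456.5 in WT) and 5 thymic epithelial markers (288.7 to 310.0 in Id3KO, 283.0 to 307.2 in WT) overlapped between the genotypes. The sum of 7 double-positive thymocyte markers was 510.8 to 529.5 in Id3KO and 535.3 to 546.2 in WT stage 1 cells. At stage 2 it was 487.4 to 535.4 in Id3KO and 528.9 to 545.8 in WT cells. Cd4 supplied the most of it, and Rag1 stayed between 36.8 and 39.9 on all arrays. The part of this sum in the results was not tested. Testing required 2 or more arrays above 55.1, the table's median intensity. This kept 13 of the 14 probe sets here, all but a dim one of Tnfrsf9.

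Without Id3, stage 2 cells had lower transcript levels of Ifng, of both interferon gamma receptor chains and of both TNF receptors, each by its brightest probe set. The dimmer probe sets of Ifngr2 and Tnfrsf1b did not pass. The Ifngr1 call was lost when most single stage 2 arrays were left out, and the Ifng values without Id3 were below the median of the table. Tnf itself and the 4 costimulatory receptors did not pass the test. At stage 1, with 2 arrays per group, no probe set of the 10 genes passed. In simulated data the test found 13.4% of log2 changes of 0.5 at stage 1 and 31.3% at stage 2. For log2 changes of 1 it found 73.1% at stage 1 and 80.6% at stage 2. No difference of the genotype effect between stages passed either, so an effect confined to stage 2 is not shown. The plot of intensities on each array shows the brightest probe set of each gene.

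**Figure D1:**
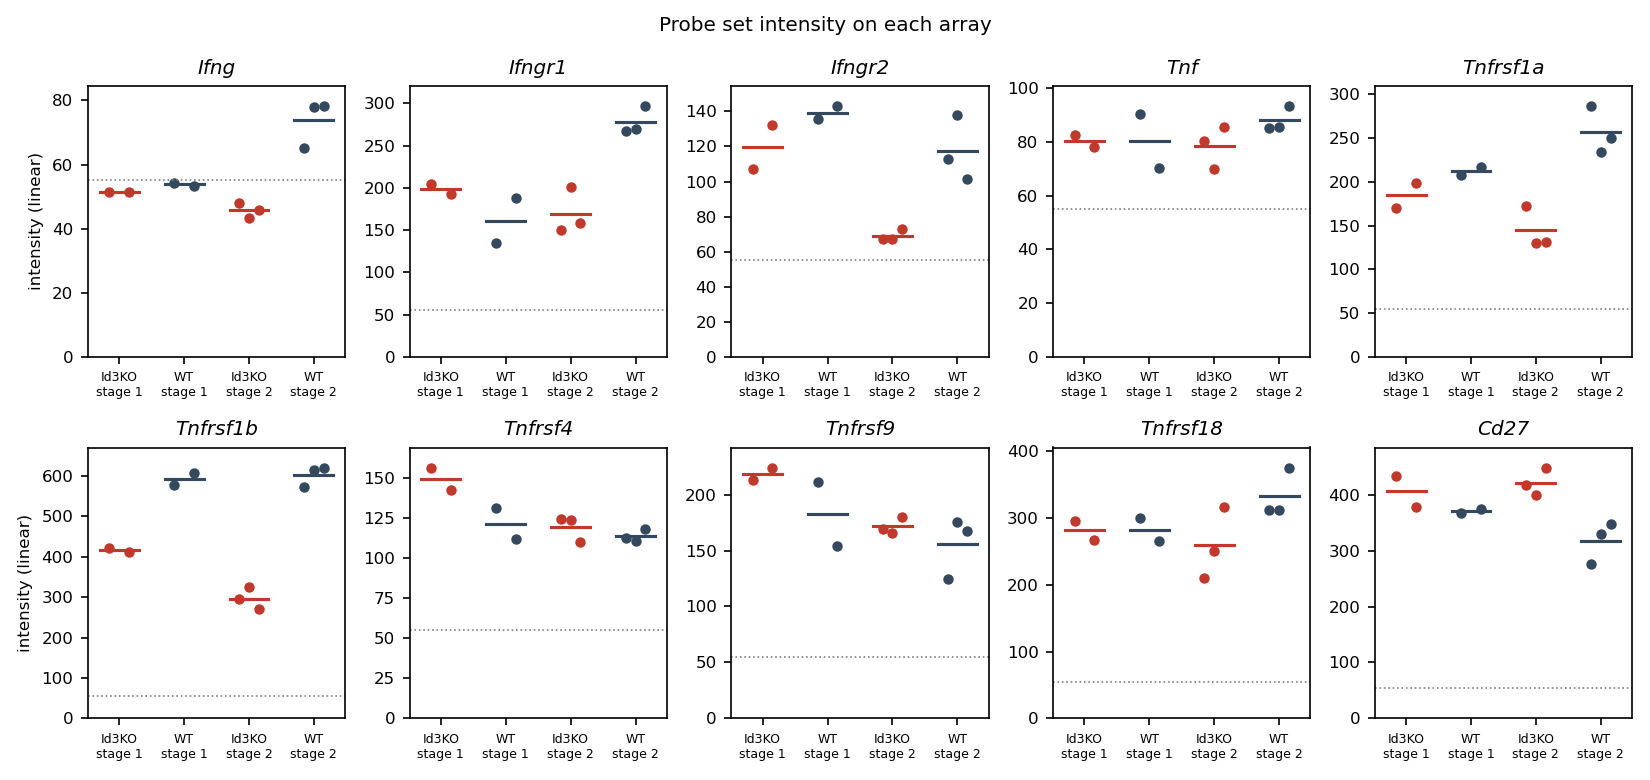
Linear intensity of the brightest probe set of each of the 10 genes on the 10 arrays, by genotype and stage. Points are arrays, bars are group means and the dotted line is the median of the table, 55.1. Tnfrsf1b lay between 270.0 and 324.1 in Id3KO stage 2 arrays, below all others, and Ifng was above the line in WT stage 2 cells only.

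Ifng (Entrez gene 15978) encodes the cytokine itself. At stage 2 its single probe set read 48.1, 43.2 and 45.8 in Id3KO arrays, against 65.3, 77.9 and 78.3 in WT arrays. The genotypes did not overlap, and the Id3KO arrays were all below the median of the table. Set against that median, Ifng was at least 1.33-fold lower in Id3KO than in WT cells. The fit gave a limma adjusted p of 0.00398, and its log2 difference of -0.69 (n = 3 each) rests on Id3KO values too dim to fix its size. Ifng entered the test only through the 3 WT stage 2 arrays. With no filter on dim probe sets its adjusted p from limma was 0.00476. At stage 1 it read 51.3 and 51.5 in Id3KO cells, against 54.3 and 53.4 in WT cells, all below the median of the table, so no difference is given.

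Ifngr1 (Entrez gene 15979) encodes the chain that binds interferon gamma. At stage 2 it stood at 149.9, 200.8 and 158.1 in Id3KO arrays, against 267.4, 269.2 and 296.9 in WT arrays. Every Id3KO array was below every WT array, and the transcript fell 1.65-fold (log2 -0.72 ± 0.15, SE, n = 3 each, limma adjusted p = 0.0286). This call was lost when any stage 2 array other than Id3KO replicate 2 was left out, with adjusted p values of up to 0.109. At stage 1 the order was the opposite, with 204.9 and 192.4 in Id3KO cells, against 134.8 and 187.8 in WT cells. That difference did not pass (log2 0.32 ± 0.18, SE, n = 2 each, limma adjusted p = 0.609), and the WT arrays were far apart.

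Ifngr2 (Entrez gene 15980) encodes the signalling chain of the same receptor. Its brighter probe set read 67.0, 67.3 and 72.9 in Id3KO stage 2 cells, against 112.8, 138.2 and 101.5 in WT stage 2 cells. The Id3KO arrays lay close together and below all WT arrays, a 1.69-fold fall (log2 -0.76 ± 0.12, SE, n = 3 each, limma adjusted p = 0.0122). At stage 1 it read 107.0 and 132.0 in Id3KO cells, against 135.6 and 143.1 in WT cells, with a log2 difference of -0.23 (95% interval -0.57 to 0.12). The dimmer probe set lay between 59.6 and 76.1 on all 10 arrays. It did not pass at stage 2 (log2 -0.08, limma adjusted p = 0.715), where its genotypes overlapped. The probe sets of Ifngr2 thus disagree at stage 2.

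Tnf (Entrez gene 21926) encodes the ligand of both TNF receptors. It read 80.6, 69.8 and 85.5 in Id3KO stage 2 cells, against 85.3, 85.6 and 93.4 in WT stage 2 cells. At stage 1 the values were 82.7 and 78.2 in Id3KO cells, against 90.5 and 70.2 in WT cells. The genotypes overlapped at both stages. The log2 differences were -0.17 at stage 2 (95% interval -0.43 to 0.09) and 0.01 at stage 1 (95% interval -0.30 to 0.33).

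Tnfrsf1a (Entrez gene 21937) encodes TNFR1, the receptor with a death domain. At stage 2 it read 172.7, 130.2 and 131.4 in Id3KO arrays, against 286.6, 233.6 and 250.4 in WT arrays. The groups did not overlap, and the transcript fell 1.78-fold (log2 -0.83 ± 0.13, SE, n = 3 each, limma adjusted p = 0.00961). At stage 1 it read 170.6 and 198.9 in Id3KO cells, against 207.7 and 217.5 in WT cells, and the difference did not pass (log2 -0.21, 95% interval -0.57 to 0.16).

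Tnfrsf1b (Entrez gene 21938) encodes TNFR2, and its brighter probe set had the largest difference of the 13 probe sets at either stage. At stage 2 it read 295.4, 324.1 and 270.0 in Id3KO arrays, against 574.2, 614.5 and 621.2 in WT arrays. This was a 2.04-fold fall (log2 -1.03 ± 0.08, SE, n = 3 each, limma adjusted p = 0.000535). The stage 1 values were 422.1 and 411.9 in Id3KO cells, against 577.3 and 607.5 in WT cells. The arrays were apart there too, but the difference of log2 -0.51 (95% interval -0.74 to -0.28) did not pass after adjustment (limma adjusted p = 0.0722). It passed with array weights (0.0409) and had adjusted p values of up to 0.276 in other settings. The dim probe set of Tnfrsf1b stayed between 54.6 and 61.4 on all arrays and differed by log2 0.03 at stage 2 and -0.02 at stage 1.

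Among the costimulatory receptors, CD27 is carried by naive T cells and by many iNKT cells. Cd27 (Entrez gene 21940) read 418.1, 398.8 and 448.8 in Id3KO stage 2 cells, against 276.2, 330.4 and 348.0 in WT stage 2 cells. All Id3KO arrays were above all WT arrays, yet the difference did not pass (log2 0.41 ± 0.10, SE, n = 3 each, limma adjusted p = 0.0644, with 0.0545 to 0.154 under the alternatives). At stage 1 Cd27 read 434.1 and 378.3 in Id3KO cells, against 366.9 and 373.9 in WT cells (log2 0.13, 95% interval -0.16 to 0.42).

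GITR, the product of Tnfrsf18 (Entrez gene 21936), is abundant on regulatory T cells and rises on activated ones. Tnfrsf18 read 210.2, 251.1 and 315.9 in Id3KO stage 2 cells, against 311.7, 312.5 and 375.6 in WT stage 2 cells. The highest Id3KO array lay within the WT range, and the log2 difference of -0.38 (95% interval -0.72 to -0.04) did not pass after adjustment (limma adjusted p = 0.232). At stage 1 the arrays overlapped, with 296.3 and 267.8 in Id3KO cells, against 300.01 and 265.27 in WT cells. Foxp3, the defining factor of regulatory T cells, lay between 38.2 and 43.5 on all arrays, below the median of the table. The summed intensity of 5 regulatory T cell markers, among them 2 that were kept, was 523.2 to 596.7 in Id3KO stage 2 cells and 614.9 to 677.9 in WT stage 2 cells. Ikzf2 supplied 312.3 to 387.5 of it in Id3KO and 401.5 to 456.6 in WT stage 2 cells, and did not pass (limma adjusted p = 0.431). The other markers of this sum overlapped between the genotypes at stage 2. The part of the sum in the results was not tested.

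OX40, the product of Tnfrsf4 (Entrez gene 22163), appears after antigen receptor signals. Tnfrsf4 read 124.3, 123.5 and 109.9 in Id3KO stage 2 cells, against 112.5, 110.6 and 118.4 in WT stage 2 cells, and the groups overlapped. The stage 1 values were 156.5 and 142.4 in Id3KO cells, against 131.0 and 111.8 in WT cells. The stage 1 arrays did not overlap, but the log2 difference of 0.30 (95% interval 0.05 to 0.55) did not pass after adjustment (limma adjusted p = 0.362).

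4-1BB, the product of Tnfrsf9 (Entrez gene 21942), is likewise induced on activated T cells. Its brightest probe set read 169.5, 165.7 and 179.7 in Id3KO stage 2 cells, against 124.7, 175.4 and 167.5 in WT stage 2 cells. The stage 1 values were 213.0 and 224.1 in Id3KO cells, against 210.9 and 154.3 in WT cells. The log2 differences were 0.15 at stage 2 (95% interval -0.19 to 0.50) and 0.28 at stage 1 (95% interval -0.14 to 0.70), and neither passed. A dimmer probe set of Tnfrsf9 lay between 45.6 and 68.5 over the 10 arrays. The untested one lay between 36.5 and 42.6.

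In all, limma's test called 5 of the 13 probe sets lower at stage 2 and 0 higher, and left 8 uncalled. Over all 25061 tested probe sets it called 4.21%, with 2.39% lower and 1.82% higher. Without a filter, 5 of all 14 probe sets were called lower, against 1.1% of the 45037. Each fall came from the brightest probe set of a different gene, so that 5 of the 10 genes fell, against 3.22% of the 11951 genes covered. Ifng, 1 of the 5, entered the test only through the WT stage 2 arrays. The 10 genes, and the lists of related genes below, were chosen with earlier results of these data known. Their counts therefore describe the chosen genes and do not test them as sets. At stage 1, 0 were called by limma, against 0.802% of all probe sets (0.459% higher and 0.343% lower), and 3 had an unadjusted p below 0.05, against 10.5% of all. Id3KO and WT arrays were fully apart at stage 1 for 9 of the 13, against 41.5% of all tested probe sets, with 5 lower (22.8% of all) and 4 higher (18.7%) in Id3KO. At stage 2 they were apart for 6 of the 13, against 21.4% of all, with 5 lower (10.5%) and 1 higher (10.9%). An unadjusted p below 0.05 was found for 7 of the 13 at stage 2, against 16.9% of all. In bulk samples, fewer cells that carry a transcript and less of it per cell cannot be told apart.

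**Figure D2:**
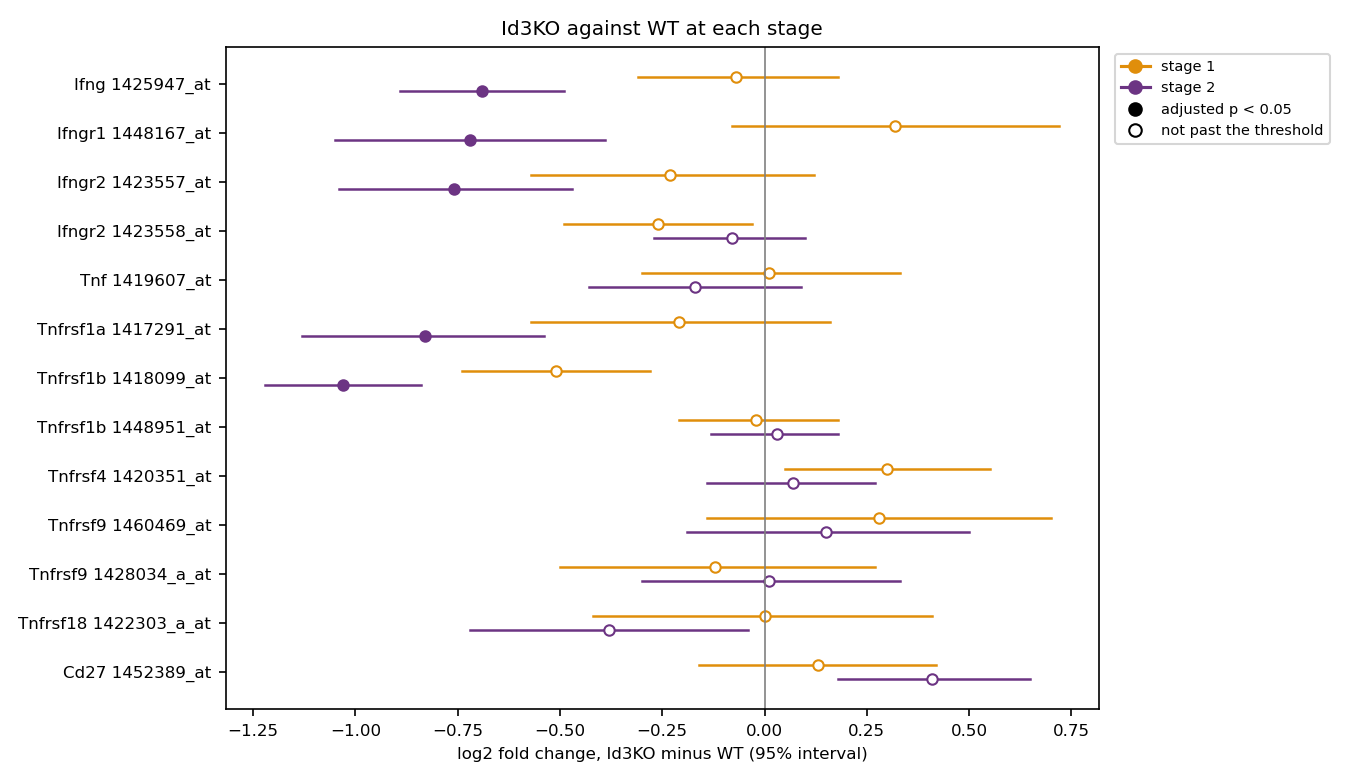
Log2 fold change of Id3KO over WT for the 13 tested probe sets at stage 1 and stage 2, with 95% intervals from limma. Filled points passed an adjusted p of 0.05. The filled points are all at stage 2, from -0.69 (Ifng) to -1.03 (Tnfrsf1b).

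Some other transcripts differed between the same arrays. Cd44, the marker that divides the stages, read 577.0, 280.1 and 506.9 in Id3KO stage 2 cells, against 653.1, 797.2 and 858.0 in WT stage 2 cells (log2 -0.82 ± 0.33, SE, n = 3 each, limma adjusted p = 0.241). The summed intensity of the 3 gamma delta T cell markers on the array, which iNKT cells that make interleukin 17 share in part, was 605.1 to 1733 in Id3KO stage 2 cells and 2166 to 2612 in WT stage 2 cells. Of this sum, Cd163l1 supplied 309.7 to 1064 in Id3KO and 1642 to 1922 in WT stage 2 cells. Blk and Sox13, its other genes, overlapped between the genotypes at stage 2. The sums overlapped at stage 1, with 714.9 to 1910 in Id3KO and 1825 to 2062 in WT cells. The sum of 7 natural killer cell markers was 569.7 to 812.6 in Id3KO and 617.7 to 806.2 in WT cells at stage 2, where 2 of its genes moved in opposite directions. Klra8 read 196.1, 349.0 and 272.8 in Id3KO stage 2 cells, against 41.7, 56.9 and 43.3 in WT stage 2 cells (limma adjusted p = 0.002). Apart from the array at 56.9, all WT arrays were below the median of the table. Klra8 thus entered the test only through Id3KO arrays. Klrd1, which encodes CD94, read 147.9, 173.8 and 206.0 in Id3KO stage 2 cells, against 292.0, 475.5 and 328.4 in WT stage 2 cells (log2 -1.04, limma adjusted p = 0.0379). At stage 1 that sum was 771.2 to 1247 in Id3KO and 377.3 to 420.1 in WT cells, and Klra8 supplied 345.1 to 676.3 of it in Id3KO cells. The defining natural killer cell gene Ncr1 stayed between 40.5 and 50.3 on all arrays. The part of these markers in the results was not tested.

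The windows upstream of the annotated starts are shown for the 5 genes that fell, because E proteins, which Id3 inhibits, bind the E-box CANNTG. The sequences are the 250 bases before the start from RefSeq (GRCm38.p6), 5′ to 3′ on the strand of the gene, with each E-box in capitals. All 10 genes matched an entry, and Tnfrsf9 had more than one start.
Ifng, chr10:118440796-118441045, plus strand: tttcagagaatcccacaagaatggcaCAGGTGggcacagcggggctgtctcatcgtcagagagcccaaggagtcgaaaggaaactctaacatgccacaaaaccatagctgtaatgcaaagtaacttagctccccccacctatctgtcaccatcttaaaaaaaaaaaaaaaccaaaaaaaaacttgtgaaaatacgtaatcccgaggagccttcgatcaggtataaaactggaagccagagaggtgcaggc
Tnfrsf1b, chr4:145246871-145247120, minus strand: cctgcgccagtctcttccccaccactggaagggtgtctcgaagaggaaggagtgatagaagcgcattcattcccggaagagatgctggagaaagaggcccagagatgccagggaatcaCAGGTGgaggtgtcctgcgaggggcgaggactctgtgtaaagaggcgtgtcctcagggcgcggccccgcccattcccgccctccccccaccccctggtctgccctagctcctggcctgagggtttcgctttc
Tnfrsf1a, chr6:125349473-125349722, plus strand: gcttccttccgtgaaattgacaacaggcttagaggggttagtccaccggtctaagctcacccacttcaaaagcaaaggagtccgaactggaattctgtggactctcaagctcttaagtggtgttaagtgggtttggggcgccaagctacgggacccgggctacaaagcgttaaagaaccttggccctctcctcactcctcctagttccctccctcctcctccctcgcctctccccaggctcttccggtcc
Ifngr2, chr16:91546809-91547058, plus strand: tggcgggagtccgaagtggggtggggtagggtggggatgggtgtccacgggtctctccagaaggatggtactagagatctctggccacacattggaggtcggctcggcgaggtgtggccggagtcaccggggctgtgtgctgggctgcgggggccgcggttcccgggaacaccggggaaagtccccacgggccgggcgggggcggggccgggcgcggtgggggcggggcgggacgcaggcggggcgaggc
Ifngr1, chr10:19591699-19591948, plus strand: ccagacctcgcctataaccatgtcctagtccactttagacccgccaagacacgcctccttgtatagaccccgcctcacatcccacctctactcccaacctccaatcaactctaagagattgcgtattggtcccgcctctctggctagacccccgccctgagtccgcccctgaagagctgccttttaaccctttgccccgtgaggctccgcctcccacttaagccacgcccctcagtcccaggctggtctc
Of the 5 genes that fell, Ifng and Tnfrsf1b held an E-box in this window, in both cases of the CAGGTG form, and Ifngr1, Ifngr2 and Tnfrsf1a held none. Each of the 5 genes that did not pass held at least 1, Tnfrsf9 at only one of its starts. The CAGGTG form was also found for Tnfrsf18. An E-box was found in 66.2% of the 32851 RefSeq windows of this length and the CAGGTG form in 17.2%, on either strand. The CAGCTG form, present in 13.0% of windows, was found for Tnfrsf9 only. The T-box core GGTGTGA, in 3.33% of all, was in none of the 10. Some motif matches overlap others. A match describes the letters of the window only.

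Tnfrsf1b, Tnfrsf9, Tnfrsf4 and Tnfrsf18 lie on chromosome 4, as does Id3, at 144, 217, 301 and 302 places from it in the order of protein-coding genes (RefSeq, GRCm38.p6). Tnfrsf4 and Tnfrsf18 are neighbours there. Ifng and Ifngr1 are both on chromosome 10, Tnfrsf1a and Cd27 on chromosome 6, Ifngr2 on chromosome 16 and Tnf on chromosome 17.

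The comparison of stage 2 with stage 1 asks how each transcript differs once cells carry CD44. In Id3KO cells, Ifng, Ifngr2, Tnfrsf1b, Tnfrsf4 and Tnfrsf9 read lower on all 3 stage 2 arrays than on both stage 1 arrays, for the brightest probe set of each, with Ifng below the median of the table throughout. In WT cells, Ifng, Ifngr1, Tnfrsf1a and Tnfrsf18 were higher on all stage 2 arrays than on both stage 1 arrays, and Cd27 and a dimmer probe set of Tnfrsf9 were lower. The arrays of the stages were thus apart for 5 of 13 probe sets in Id3KO, against 18.4% of all (8.91% lower and 9.45% higher). In WT they were apart for 6 of 13, against 26.2% of all (14.4% lower and 11.8% higher). No probe set of the 10 genes passed in either genotype, with 0 of 13 called in each.

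Ifngr1 in WT cells had the largest stage difference, with 267.4 to 296.9 at stage 2 and 134.8 to 187.8 at stage 1. Its log2 difference of 0.80 ± 0.16 (SE, n = 3 against 2) had a limma adjusted p of 0.197. In Id3KO cells the log2 difference of Ifngr1 was -0.24 (95% interval -0.61 to 0.13), with overlapping arrays. Ifngr2 was at log2 -0.78 (95% interval -1.10 to -0.47) in Id3KO cells and -0.26 (95% interval -0.57 to 0.06) in WT cells. Tnfrsf1b was at log2 -0.50 (95% interval -0.71 to -0.29) in Id3KO cells and 0.03 (95% interval -0.18 to 0.24) in WT cells. Ifng was below the median of the table at both stages in Id3KO cells, and in WT cells it was above it at stage 2 and below it at stage 1.

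At an unadjusted p below 0.05, 4 of the 13 probe sets differed between stages in Id3KO, against 4.51% of all tested, and 2 in WT, against 8.06%. The stage comparison called 0 of 25061 probe sets in Id3KO and 4 in WT (0.016%), so few transcripts of any kind passed it. The difference of the genotype effects between stages, the interaction, was called for 0 of the 13 and for 0 of all 25061 probe sets (0% called). Its unadjusted p was below 0.05 for 5 of the 13, the brightest probe sets of Ifng, Ifngr1, Ifngr2, Tnfrsf1a and Tnfrsf1b, against 7.07% of all. All 5 had a negative interaction, from log2 -0.52 to -1.04, with limma adjusted p values of 0.507 to 0.681, and that of Ifng rests mostly on values below the median of the table.

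**Figure D3:**
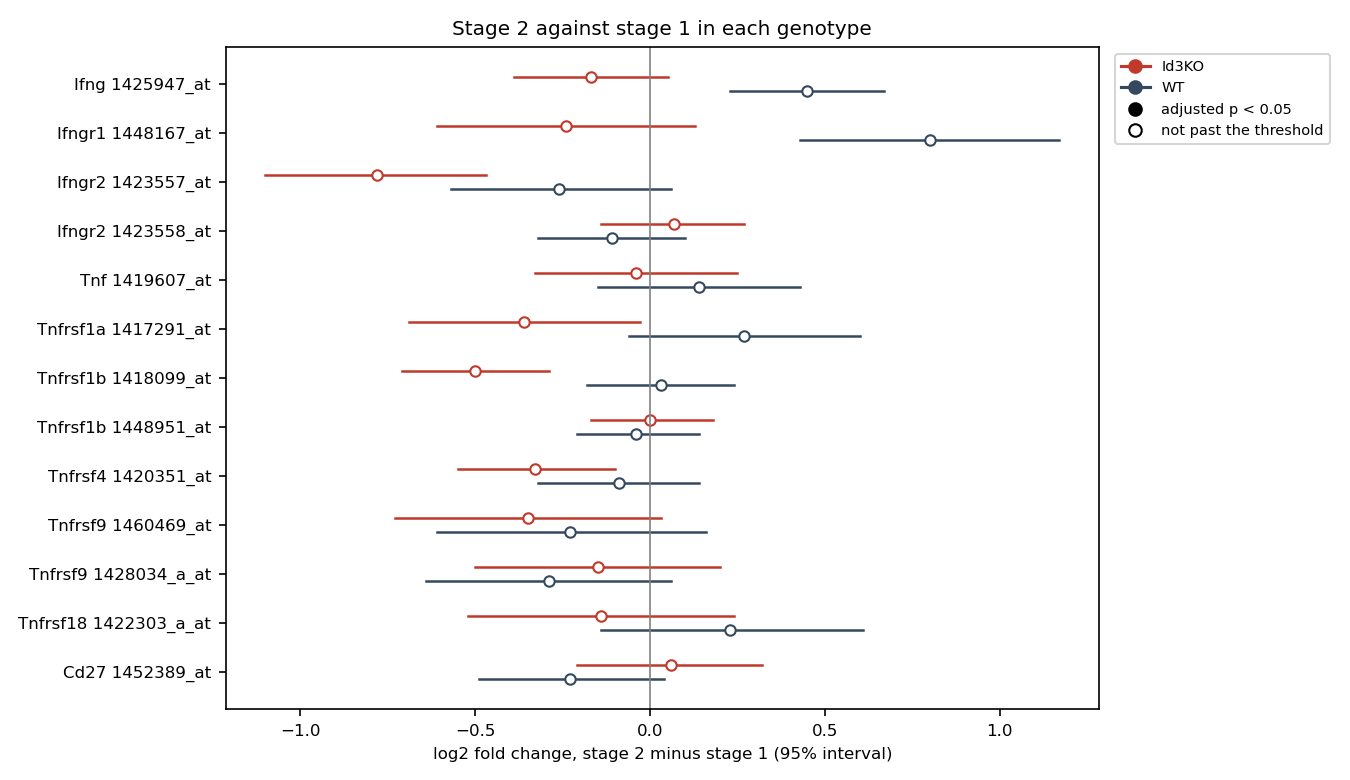
Log2 fold change of stage 2 over stage 1 for the 13 tested probe sets in Id3KO and WT cells, with 95% intervals from limma. No point passed an adjusted p of 0.05, so all are open. Ifngr1 stood at -0.24 in Id3KO and 0.80 in WT cells.

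The order of the group means differed between genes. For Ifng, WT stage 2 (73.8) stood above the median of the table, and the other 3 groups lay below it and were not ranked. For Tnfrsf1b it was WT stage 2 (603.3 ± 25.4, SD, n = 3), WT stage 1 (592.4 ± 21.3, SD, n = 2), Id3KO stage 1 (417.0 ± 7.26, SD, n = 2) and Id3KO stage 2 (296.5 ± 27.0, SD, n = 3). The WT stages overlapped, and the other neighbours were apart without passing the test. For Ifngr1 the order was WT stage 2 (277.8 ± 16.6, SD, n = 3), Id3KO stage 1 (198.7 ± 8.85, SD, n = 2), Id3KO stage 2 (169.6 ± 27.3, SD, n = 3) and WT stage 1 (161.3 ± 37.5, SD, n = 2). The last 3 of these groups lay within 134.8 to 204.9. For Ifngr2 the order was WT stage 1 (139.3), Id3KO stage 1 (119.5), WT stage 2 (117.5) and Id3KO stage 2 (69.1), where Id3KO stage 1 and WT stage 2 overlapped and the others were apart from their neighbours. For Tnfrsf1a it was WT stage 2 (256.9), WT stage 1 (212.6), Id3KO stage 1 (184.7) and Id3KO stage 2 (144.8). The Id3KO stages overlapped, and the other neighbours were apart without passing the test.

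The transcripts most like each of the 5 in pattern were ranked by Pearson correlation of log2 intensity over the 10 arrays, which share the genotype difference. For Tnfrsf1b they were Ap3s1 (r = 0.984), an adaptor subunit of vesicle traffic, Itgae (0.969), the CD103 integrin chain, and Myl10 (0.968), a myosin light chain. For Tnfrsf1a they were Sfmbt2 (0.969), Gtdc1 (0.968) and Cd47 (0.966), which encodes a surface protein that inhibits phagocytosis. For Ifng they were Matn2 (0.966), a matrix protein, Notch1 (0.963), a receptor of T cell development, and Tmem176a (0.962). For Ifngr1 they were Kbtbd11 (0.944), Mast3 (0.926) and Actn2 (0.917). For Ifngr2 they were Ptger4 (0.931), a prostaglandin E2 receptor, Mdh1 (0.918), malate dehydrogenase, and Sbk1 (0.918). Between the 10 genes themselves, Tnfrsf1a and Tnfrsf1b had r = 0.872, and Ifngr1 and Ifngr2 had 0.241. Cd27 was at -0.861 with Tnfrsf1a.

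Some genes that control the transcription of Ifng, or that carry the cytokine signals which do so, also fell at stage 2. By the brightest probe set of each, 8 of 17 fell, 0 rose and 9 did not pass, against 3.22% of all genes called lower, and the median was log2 -0.38, against 0.008 over all genes. Runx3, a Runt factor that acts with T-bet at Ifng, read 92.2, 110.2 and 93.2 in Id3KO stage 2 cells, against 393.9, 436.8 and 425.1 in WT stage 2 cells (log2 -2.09 ± 0.12, SE, limma adjusted p = 0.000179). A dimmer probe set of Runx3 stood at -0.08 and did not pass. Tbx21, the T-box factor T-bet, fell by 1.79 on the log2 scale, and the interleukin 18 receptor chains Il18rap (-1.58) and Il18r1 (-1.13) fell too. So did Il12rb1 (-0.88), a chain of the interleukin 12 receptor, Il2rb (-0.95), a chain of the interleukin 2 and 15 receptors, Bhlhe40 (-0.38), a bHLH factor, and Zfp36l1 (-0.48), which promotes decay of cytokine transcripts. The call was lost in 9 of 19 alternatives for Il2rb, 9 of 18 for Bhlhe40 and 8 of 19 for Zfp36l1. It was lost in 3 of 19 for Il12rb1 and for Il18r1. Stat4 (-0.26, limma adjusted p = 0.456) did not pass. The opposite direction was seen for Eomes, which encodes a relative of T-bet. Its brightest probe set stood at 0.61 (limma adjusted p = 0.221) at stage 2 and 1.33 (0.0929) at stage 1, and neither passed. Its dimmer probe set was higher in Id3KO on all arrays and passed at stage 2 (0.91, limma adjusted p = 0.00999) and at stage 1 (1.44, 0.0118). The WT means of this dimmer probe set (log2 5.32 at stage 2 and 5.33 at stage 1) were below the median of the table. The brightest probe set of Eomes read 48.1 to 53.9 on WT arrays, all below that median, and entered the test only through Id3KO arrays. These WT values are too dim to fix the size of the Eomes differences. Dimmer probe sets of Il2rb (-0.25, limma adjusted p = 0.165) and Zfp36l1 (-0.12, 0.722) did not pass at stage 2. The count was 3 without WT replicate 3, 4 without WT replicate 2, and 4 without Id3KO replicate 1 or replicate 2 of stage 2. At stage 1, by the brightest probe sets, Runx3 alone fell (-1.30, limma adjusted p = 0.0100) and 16 were not called, with 0.460% of all genes called lower. That call was lost without either WT stage 1 array, or with only the stage 1 arrays in the fit. The list's median at stage 1 was log2 -0.21, against -0.022 over all genes.

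Some genes that signal for or respond to interferon gamma fell too at stage 2. By the brightest probe set of each, 9 of 30 fell, 0 rose and 21 were not called, against 3.22% of all genes called lower. The list's median was log2 -0.44, against 0.008 over all genes. Several of these genes also respond to type I interferon. Gbp6, a guanylate-binding protein, read 86.9, 125.4 and 113.0 in Id3KO stage 2 cells, against 266.8, 361.1 and 346.6 in WT stage 2 cells (log2 -1.59 ± 0.16, SE, limma adjusted p = 0.00133). Another of its probe sets stood at -1.96. The immunity-related GTPases Igtp (-1.04) and Irgm2 (-0.97), the guanylate-binding protein Gbp2 (-1.08) and the transcription factor Irf1 (-0.58) fell as well. So did genes that load peptides on MHC class I, Tapbp (-0.56) and Tap1 (-0.53), and B2m (-0.38), its light chain. Other probe sets of these 3 genes did not pass, with Tapbp at -0.19 (limma adjusted p = 0.334), Tap1 at 0.06 (0.76) and B2m at -0.33 (0.0678). The call was lost in 12 of 19 alternatives for B2m, 9 for Tapbp and 3 for Tap1. It was lost in 5 of 19 for Irf1 and for Gbp2, and in 2 for Igtp. Socs3, an inhibitor of cytokine signals, had the largest change of the list (-2.29). The guanylate-binding proteins are a family of similar transcripts, and a probe set can bind more than one.

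The kinases and the class I activator did not pass. Jak1 stood at log2 0.03 ± 0.11 (SE, limma adjusted p = 0.946), Jak2 at -0.62 (0.126) and Nlrc5, which drives class I genes, at -0.71 (0.0596). The count of 9 was 3 without WT replicate 3 and 5 without WT replicate 2 of stage 2. At stage 1 the median was -0.34, against -0.022 over all genes. Gbp6 alone fell there (-1.45, limma adjusted p = 0.0154), with 0.460% of all genes called lower, and 29 did not pass. That call was lost without any one of the 4 stage 1 arrays, or with only the stage 1 arrays in the fit (up to 0.131).

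Below the TNF receptors, adaptors and NF-kappaB genes carry the signal. By the brightest probe set of each, 2 of 33 fell at stage 2, 0 rose and 31 were not called, against 3.22% of all genes called lower, so the count says little about the list. Their median was log2 -0.12, against 0.008 over all genes. Tnfaip3, the NF-kappaB target and inhibitor A20, read 103.1, 117.9 and 103.2 in Id3KO stage 2 cells, against 159.7, 178.0 and 160.7 in WT stage 2 cells (log2 -0.62 ± 0.09, SE, limma adjusted p = 0.00642). Its partner Tnip1 fell by 0.47 on the log2 scale, a call lost in 9 of 19 alternatives. Traf2, the adaptor shared by several TNF family receptors, stood at -0.09 (limma adjusted p = 0.792), and Traf1, an adaptor induced by NF-kappaB, at -0.15 (0.625). Rela, a main NF-kappaB subunit, stood at -0.11 (0.530) and Relb at -0.51 (0.142). Dimmer probe sets of Nfkbia, an NF-kappaB inhibitor (-0.78), and Cyld, a deubiquitinase (-0.63), passed where their brightest did not. The count was 1 without WT replicate 2 or 3 of stage 2, without either Id3KO stage 1 array, or without Id3KO replicate 2 of stage 2, and 5 without Id3KO replicate 3 of stage 2. At stage 1, 0 of the 33 were called, with 0.460% of all genes called lower. The list had a median of log2 -0.11 there, against -0.022 over all genes.

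Among 10 ligands of the TNF family, 2 fell, 0 rose and 8 did not pass at stage 2, against 3.22% of all genes called lower. Lta, lymphotoxin alpha, which also binds both TNF receptors, read 62.8, 61.2 and 70.4 in Id3KO stage 2 cells, against 95.4, 89.1 and 106.1 in WT stage 2 cells (log2 -0.58 ± 0.09, SE, limma adjusted p = 0.0119). Ltb, lymphotoxin beta, fell by 0.87 on the log2 scale. Tnfsf4, the ligand of OX40, stood at 0.05 (limma adjusted p = 0.825), Tnfsf9, the ligand of 4-1BB, at -0.22 (0.211) and Fasl, the Fas ligand, at -0.73 (0.0899). The count was 1 without WT replicate 3 or Id3KO replicate 1 or 2 of stage 2.

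Of 13 further TNF receptor family genes, 1 fell at stage 2 and 12 were not called, against 3.22% of all genes called lower, so the count says little about the list. The median was log2 -0.03, against 0.008 over all genes. The one was Tnfrsf25, the death domain receptor DR3 that binds TL1A. It read 87.2, 100.8 and 66.6 in Id3KO stage 2 cells, against 368.6, 349.7 and 482.6 in WT stage 2 cells, a 4.74-fold fall (log2 -2.24 ± 0.17, SE, limma adjusted p = 0.000476). The stage 1 values were 87.6 and 105.0 in Id3KO cells, against 208.3 and 235.0 in WT cells (log2 -1.21, limma adjusted p = 0.0458), a call lost in 12 of 19 alternatives, each stage 1 array left out among them (up to 0.256). Fas, a death receptor, stood at -0.21 (limma adjusted p = 0.550) at stage 2 and Cd40 at -0.25 (0.446). Tnfrsf25 also lies on chromosome 4, 232 places from Id3.

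**Figure D4:**
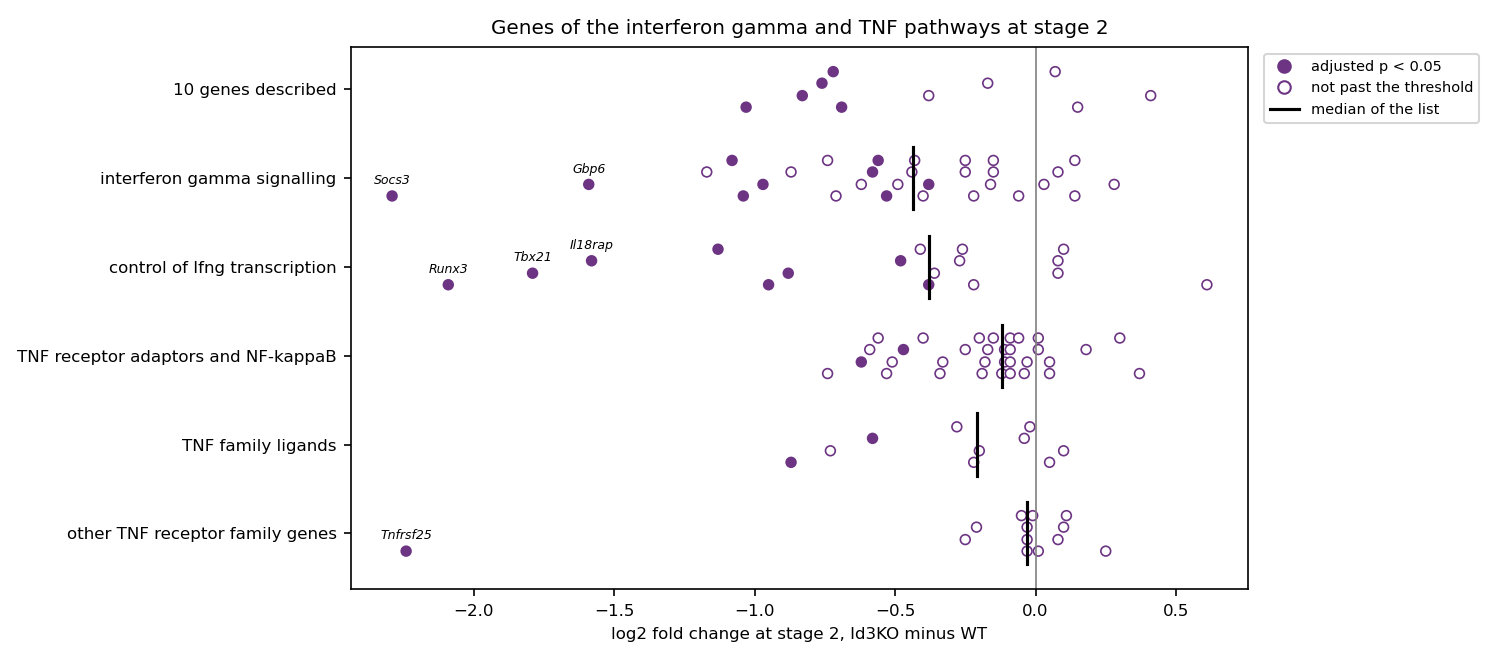
Log2 fold change of Id3KO over WT at stage 2 for the 10 genes and for 5 lists of related genes, each gene by its brightest tested probe set. Filled points passed an adjusted p of 0.05, and black bars are list medians, from -0.44 for interferon gamma signalling to -0.03 for the other TNF receptor genes. Every filled point is left of 0.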

How the data were processed

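The authors deposited linear intensities per probe set, from 29 to 15399. The submitters' processing notes name RMA, a method of background correction, quantile normalization and summarization, with no version. Log2 of the deposited intensities was taken here. Groups and replicate numbers were copied from the labels, which call the replicates biological. Probe sets with log2 intensity above 5.78 on at least 2 arrays were kept (25061). Genes come from a platform annotation, with symbols checked by gene ID, and some rows of the array were not analysed here. The model, in limma 3.58.1 (R 4.3.3), held a mean for each of the 4 groups (6 residual and 2.80 prior degrees of freedom). Tests were two-sided, with Benjamini-Hochberg adjustment over all kept probe sets and a call at 0.05. Related genes were taken from 5 lists by their brightest kept probe set. The named genes are the 10 genes, called members of the lists with up to 4 others each, and the 3 transcripts of highest correlation. The 10 genes and the lists were chosen with earlier results of these data known. The fit was tested on simulated data. Alternatives were no filter, a stricter filter, 2 further normalizations, another variance model, array weights, only the arrays compared, a replicate block and each array left out. A block with crossed numbers was added after seeing the data. The result of one promoter motif is not reported here.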

Additional observations from a re-analysis of the deposited data

Results flagged for a closer look

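Ifng read differently between stages in the genotypes, but only WT stage 2 arrays were above the median of the table, so a direction in Id3KO cells is not shown. All 3 stage 2 arrays were below both stage 1 arrays in Id3KO cells and above them in WT cells. The interaction was log2 -0.62 ± 0.14 (SE, limma adjusted p = 0.507) and did not pass, and 3 of the 4 groups averaged below the median of the table.

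Ifngr1 was higher in Id3KO than in WT on all stage 1 arrays (log2 0.32) and lower on all stage 2 arrays (log2 -0.72). The interaction was log2 -1.04 ± 0.23 (SE, limma adjusted p = 0.507) and did not pass. At stage 1 the Id3KO arrays read 204.9 and 192.4 and the WT arrays 134.8 and 187.8.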

How the results depend on the processing

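The falls of Ifng, Ifngr2, Tnfrsf1a and Tnfrsf1b at stage 2 passed in every setting in which they were tested, with limma adjusted p of up to 0.0446, and no direction of a called probe set or listed gene was reversed. The stricter filter did not test Ifng. The stage 2 count of 5 was 4 to 5 with single arrays left out, the difference being Ifngr1, and 5 with the replicate block. At stage 1 it was 0, or 1 with array weights.

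Stage 2 list counts with only the arrays compared were 3 for interferon gamma signalling, 5 for control of Ifng and 1 for TNF adaptors, which had 5 with array weights. Leaving out single arrays gave 3 to 8, 3 to 7 and 1 to 5, and 1 to 3 for TNF ligands. At stage 1 the interferon list had 0 with only the arrays compared and 2 with either block, the control list 2 with array weights and 0 with only the arrays compared, and TNF ligands 1 with either block. The other TNF receptors had 0 with no filter, quantile normalization, only the arrays compared or either block. Leaving out single arrays gave 0 to 2 in the interferon and control lists and 0 to 1 in the other receptors. The cause was not tested.

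For same-numbered arrays of different groups, deviations from the group means correlated at r -0.311 to 0.133 over 13 pairs, and the numbers were not taken to pair them. Differently numbered arrays gave r -0.187 to 0.311 over 24 pairs. In groups of 2 arrays the deviations mirror each other, so these pairs are not separate checks. Whether arrays shared processing was not tested. The replicate block moved the calls at stage 2 to 322 higher and 457 lower, against 457 and 598, and at stage 1 to 54 and 45, against 115 and 86. After crossing the replicate numbers in Id3KO stage 1, chosen after seeing the data because same-numbered stage 1 arrays correlated at -0.135, they were 93 and 76 at stage 1. Probe sets near the median of the table, such as Ifng, give the least certain differences.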
